A study of Mus musculus with 8 samples.

Results

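Lipid handling in the fat cell lineage was followed here through 10 genes: Lpl, Cd36, Fabp4, Car3, Plin2, Pnpla2, Mgll, Acsl1, Fasn and Scd1. They are the rows of these symbols among the 35976 symbols of the count table, and each has 1 row. The samples were preadipocytes, stromal cells that can become fat cells, from inguinal white fat (iWAT) of male mice fed a high fat diet for 6 weeks. RNA was sequenced from 3 libraries of Pdgfra-Tet3 KO mice (KO) and 3 libraries of Tet3 f/f mice (WT), which carry the floxed Tet3 alleles. The KO label names Pdgfra as the driver of the deletion, and the labels name no Cre line. In both genotypes the sort had kept cells that carry PDGFRa and had removed cells that carry CD45, CD31 or TER119. The other 2 samples of the series are pools for whole genome bisulfite sequencing after 14 weeks of diet and were not analysed here. Whether each library is a separate animal is not in the labels, so the p-values reflect how these libraries vary, which may be technical variation. The 10 genes were chosen with earlier results of these data known, among them the opposite directions of Lpl and Car3. The values of that pair are therefore a description.

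Adipose cells take up fatty acids that lipoprotein lipase releases from circulating triglyceride, carry them across the membrane and through the cytosol, activate them with coenzyme A and store them as triglyceride in lipid droplets. Lipases on the droplet surface release them again, and cells also make fatty acids anew from acetyl-CoA. Many of these genes are induced as preadipocytes become fat cells, under the nuclear receptor PPARg. TET3 is a dioxygenase that oxidises 5-methylcytosine, mainly at CpG sites, which are a cytosine followed by a guanine.

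The promoters of the set differ in how many CpG sites they hold, as the following 3 show: that of Mgll, which passed the test in KO, and those of Plin2 and Cd36, which averaged lower in KO without passing. The sequences are from RefSeq on the build GRCm38.p6, run 5' to 3' on the strand of the gene, and reach from 250 bases before the annotated start to 50 after it. Capitals mark CpG sites.
Cd36, chr5:17835847-17836146, minus strand: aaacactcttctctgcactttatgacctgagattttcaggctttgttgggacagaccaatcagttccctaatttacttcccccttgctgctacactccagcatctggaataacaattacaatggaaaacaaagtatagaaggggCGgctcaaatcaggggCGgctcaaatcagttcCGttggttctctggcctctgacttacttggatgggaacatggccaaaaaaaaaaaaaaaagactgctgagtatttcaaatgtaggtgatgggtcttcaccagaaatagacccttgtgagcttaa
Plin2, chr4:86670010-86670309, minus strand: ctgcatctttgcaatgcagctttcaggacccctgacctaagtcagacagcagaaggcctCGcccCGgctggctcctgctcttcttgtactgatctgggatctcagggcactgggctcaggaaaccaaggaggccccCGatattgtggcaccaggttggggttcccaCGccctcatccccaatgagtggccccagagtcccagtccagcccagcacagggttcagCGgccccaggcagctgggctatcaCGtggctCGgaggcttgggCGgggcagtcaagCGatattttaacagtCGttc
Mgll, chr6:88724162-88724461, plus strand: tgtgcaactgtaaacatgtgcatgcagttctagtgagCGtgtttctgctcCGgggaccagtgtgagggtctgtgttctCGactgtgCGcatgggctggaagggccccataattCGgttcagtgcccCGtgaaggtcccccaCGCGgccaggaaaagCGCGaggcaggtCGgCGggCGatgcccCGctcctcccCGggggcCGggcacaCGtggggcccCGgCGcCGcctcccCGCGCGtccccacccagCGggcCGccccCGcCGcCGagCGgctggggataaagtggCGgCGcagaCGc
The Cd36 promoter held 3 CpG sites, a number that 76.7% of the 32851 promoters of the table reach. The Plin2 promoter held 10, which 43.5% reach, and this Mgll promoter held 32, which 9.5% reach. A downstream start of Mgll has 42 CpG sites in its window. The promoter of Fasn had 39, that of Pnpla2 had 18, and the 2 starts of Acsl1 had 30 and 4. The median promoter held 7. The E-box CACGTG, which reads the same on both strands, occurred once in the windows of Plin2 and of the upstream Mgll start, and 7.15% of all promoters hold it. The motif itself contains CG, so it overlaps a marked CpG site wherever it occurs. The half-site of nuclear receptors, AGGTCA, searched on both strands, occurred once each in the windows of Cd36 and Plin2 and in none of the other 6, and 16.3% of all promoters hold it. In all, 6 of the 10 genes matched the promoter table. Lpl, Fabp4, Car3 and Scd1 had no entry. Methylation at these promoters was not analysed here.

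The RNA libraries held between 1831218 and 2374978 counts. Levels are given as CPM (read counts relative to library size, scaled by TMM factors), and levels of different genes are not compared because they are not scaled to length. Tet3, the targeted gene, stood at 42.3 ± 2.91 CPM in KO and 49.9 ± 5.01 CPM in WT (SD, n = 3 each), and the counts did not separate the genotypes (log2 fold change -0.24 ± 0.24, SE; adjusted p = 0.71 by edgeR). Since the counts cover the whole gene, they cannot show whether exons were deleted. Pdgfra, which encodes the receptor used for the sort, fell in KO, at 407, 482 and 462 CPM in KO libraries 1 to 3, against 666, 660 and 619 CPM in WT libraries 1 to 3 (adjusted p = 0.00598).

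In KO preadipocytes Lpl, the lipase that frees fatty acids from circulating triglyceride, fell to 0.66 of its WT level. Mgll, which encodes the enzyme that splits the last fatty acid from glycerol, rose 1.49-fold, and Car3, a cytosolic carbonic anhydrase that is abundant in fat and muscle, rose 3.07-fold. By the quasi-likelihood test of edgeR at an adjusted p of 0.05, these are 3 of the 9 genes that could be tested, 2 higher and 1 lower. Over all 9943 tested genes 3.59% were called, 1.82% as higher and 1.77% as lower. An unadjusted p under 0.05 was reached by 6 of the 9 genes, where 15.5% of all tested genes reached it. The 9 genes were chosen with earlier results known, the directions of Lpl and Car3 included, so their counts beside such shares are a description. Of the others, 4 averaged lower and 2 higher in KO without passing when Pnpla2, at a log2 fold change of -0.01, is counted among the lower ones. The KO and WT libraries did not overlap in 5 of the 9, with 3 higher and 2 lower in KO, where 20.4% of all tested genes did so, 10.1% with KO higher and 10.3% with KO lower. Acsl1 was below the filter on low counts. The median over the 9 tested genes was a log2 fold change of -0.01, and over all tested genes -0.0024.

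**Figure D1:**
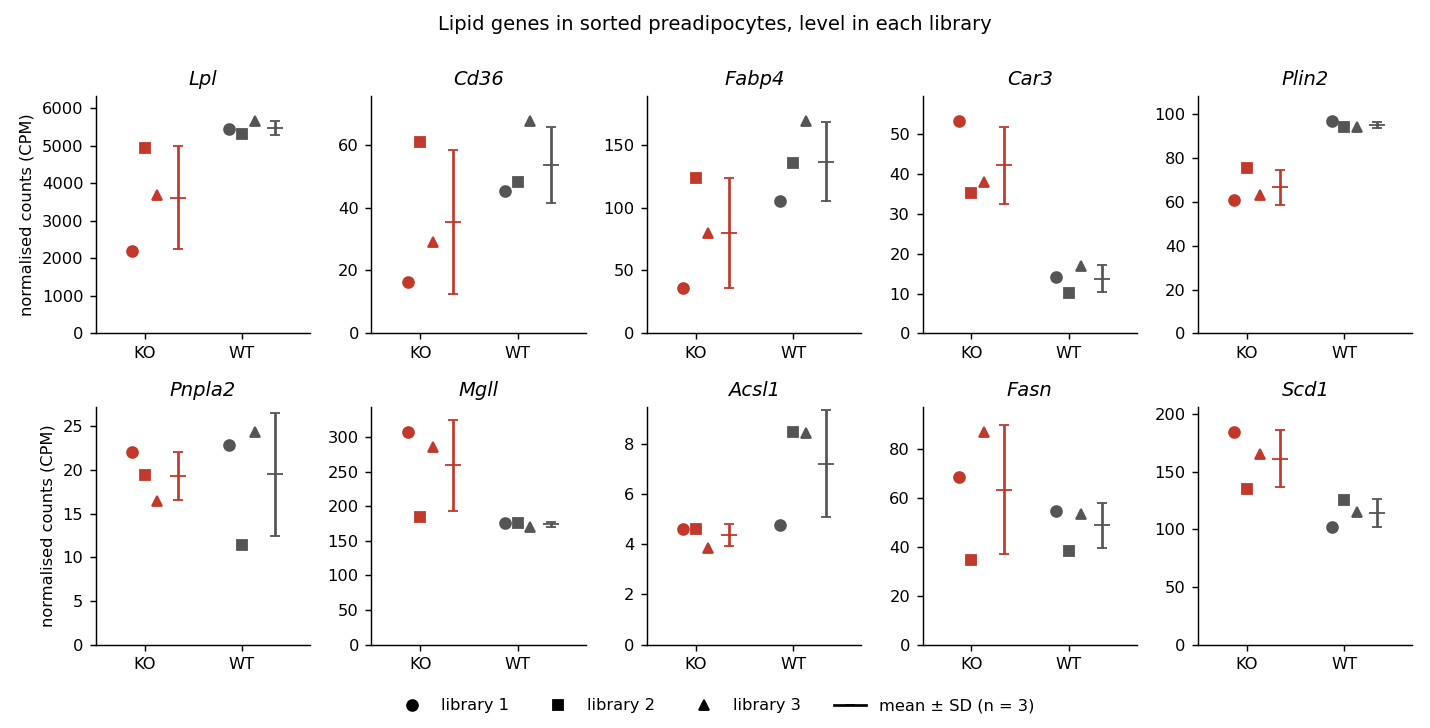
Level of the 10 lipid genes in each library, in CPM on axes that start at 0, with KO left of WT. Symbols mark the library number and bars the mean ± SD of 3 libraries. Car3 lies between 35.3 and 53.4 CPM in KO, above every WT library, and Lpl lies below every WT library in KO, with a wide spread.

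Lpl is secreted and acts at the capillary wall. It had 4295, 9657 and 6706 counts in KO libraries 1 to 3, against 11466, 12521 and 11391 counts in WT libraries 1 to 3. At the scale of CPM these were 2204, 4937 and 3689 in KO, against 5452, 5301 and 5655 in WT. All KO libraries lay below all WT libraries, but KO library 2 lay close to them and KO library 1 far below. The mean was 3610 ± 1368 CPM in KO and 5469 ± 178 CPM in WT (SD, n = 3 each), and the log2 fold change was -0.60 ± 0.15 (SE, adjusted p = 0.0163 by edgeR). The highest KO library had 2.24 times the level of the lowest, and in WT this ratio was 1.07. Among tested genes with a mean of at least 10 CPM in both genotypes, the median ratio was 1.41 in KO and 1.41 in WT, and 14.3% of them had a ratio of 2 or more in KO. The fold change depended on KO library 1, and without it was -0.34, still passing by edgeR (adjusted p = 0.0158). The call was lost without KO library 3, WT library 1 or WT library 3, at adjusted p of 0.135, 0.0909 and 0.0976, and under DESeq2 (adjusted p = 0.367).

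Cd36, a scavenger receptor that takes up long-chain fatty acids, followed the same order of KO libraries. It stood at 16.4, 60.8 and 29.2 CPM in KO libraries 1 to 3, against 45.2, 48.3 and 67.5 CPM in WT libraries 1 to 3. Both KO libraries 1 and 3 lay below WT, while KO library 2 lay within the WT range. The log2 fold change was -0.59 ± 0.32 (SE), with a 95% interval of -1.24 to 0.053, and did not pass (adjusted p = 0.379 by edgeR). Fabp4, which encodes a carrier of fatty acids in the cytosol, stood at 35.9, 123 and 79.8 CPM in KO libraries 1 to 3, against 106, 135 and 169 CPM in WT libraries 1 to 3. Here too KO library 1 was the lowest of the 6 and KO library 2 was inside the WT range. For Fabp4 the log2 fold change was -0.78 ± 0.25 (SE), with an adjusted p of 0.0888 by edgeR. Both results depended on KO library 2: without it Cd36 had a log2 fold change of -1.24 (adjusted p = 0.0233) and Fabp4 one of -1.25 (adjusted p = 0.00262). Fabp4 also passed by limma-voom (adjusted p = 0.038) and without the filter on low counts (adjusted p = 0.0025), but not by DESeq2 (adjusted p = 0.533). Without KO library 1 the log2 fold changes were -0.25 for Cd36 and -0.42 for Fabp4.

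**Figure D2:**
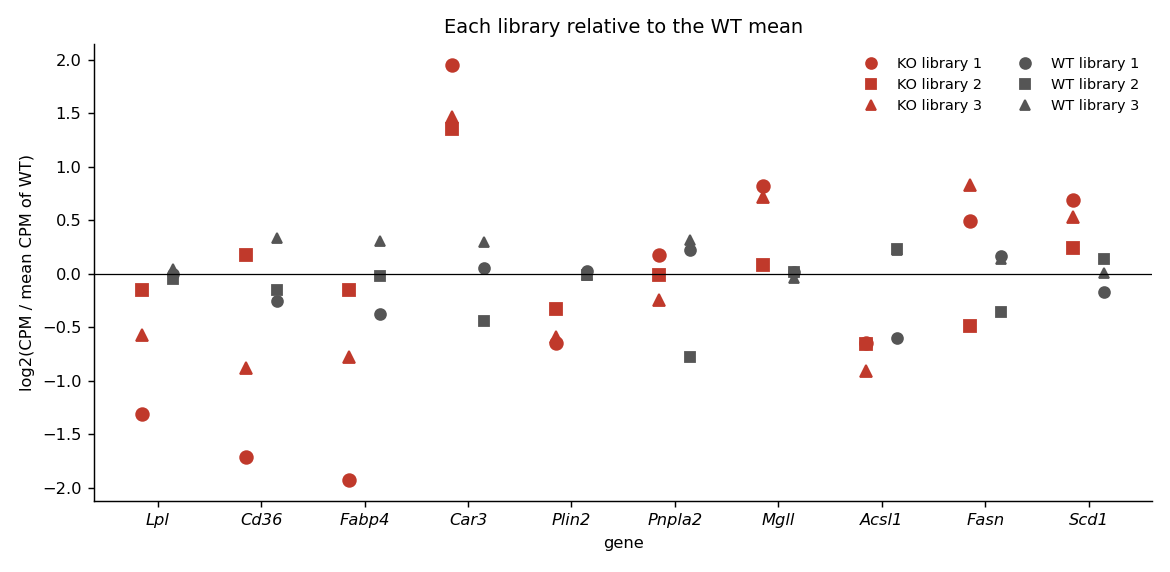
Each library's level relative to the WT mean of the same gene, on a log2 scale, with KO symbols left of WT symbols for each gene. KO library 1 is farthest below the WT mean for Lpl, Cd36 and Fabp4, at -1.31, -1.71 and -1.93, and farthest above it for Car3, at 1.95.

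Of the 10 genes, 7 had KO library 1 as the KO library farthest from the WT mean, 3 had KO library 3 and 0 had KO library 2. Among the 7827 tested genes with a mean of at least 10 CPM in both genotypes, KO library 1 was farthest for 37.7%, KO library 3 for 33.3% and KO library 2 for 29.0%. The genes share these libraries, so they are not separate evidence on the genotype. Lpl, Cd36 and Fabp4 were lowest in KO library 1, intermediate in KO library 3 and highest in KO library 2. Mgll and Car3 were highest in KO library 1 and lowest in KO library 2.

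Acsl1, the long-chain acyl-CoA synthetase that is prominent in fat cells, had 9, 9 and 7 counts in KO libraries 1 to 3, against 10, 20 and 17 counts in WT libraries 1 to 3. All KO libraries lay below all WT libraries, with a gap of 1 count to WT library 1. With a filter that keeps genes of a mean count of at least 10, its log2 fold change was -0.73 ± 0.65 (SE), with a 95% interval of -2.06 to 0.60 (adjusted p = 0.657 by edgeR). This depth therefore does not resolve a change in Acsl1.

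Fatty acid synthesis was represented by Fasn and Scd1. Fasn, the enzyme complex that builds palmitate, stood at 68.8, 34.8 and 86.9 CPM in KO libraries 1 to 3, against 54.7, 38.1 and 53.6 CPM in WT libraries 1 to 3. KO library 2 was the lowest of the 6 and the other KO libraries the highest, so the groups overlapped. The log2 fold change was 0.38 ± 0.27 (SE), with a 95% interval of -0.16 to 0.92 (adjusted p = 0.546 by edgeR). Scd1, which adds a double bond to saturated fatty acids, stood at 184, 135 and 165 CPM in KO libraries 1 to 3, against 102, 126 and 115 CPM in WT libraries 1 to 3. The groups did not overlap, though KO library 2 and WT library 2 lay close together. For Scd1 the log2 fold change was 0.50 ± 0.16 (SE) and did not pass (adjusted p = 0.094 by edgeR). Scd1 has close paralogs, and no source used here says how reads shared between them were counted. Its paralog Scd2 had 288 ± 65.2 CPM in KO and 231 ± 18.4 CPM in WT (SD, n = 3 each; adjusted p = 0.283).

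Plin2, a perilipin that coats lipid droplets in many cell types, stood at 61.1, 75.7 and 63.3 CPM in KO libraries 1 to 3, against 97.0, 94.4 and 94.3 CPM in WT libraries 1 to 3. All KO libraries lay below all WT libraries, and the WT libraries lay close together. The log2 fold change was -0.51 ± 0.19 (SE), with a 95% interval of -0.90 to -0.13 that stands before adjustment over genes, and the adjusted p by edgeR was 0.148. Plin2 stayed short of the threshold in every setting tried, with a log2 fold change between -0.62 and -0.45 when 1 library was left out.

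Lipolysis was represented by both ends of the pathway. Pnpla2 encodes adipose triglyceride lipase, which takes the first fatty acid from triglyceride. It stood at 22.1, 19.4 and 16.5 CPM in KO libraries 1 to 3, against 22.8, 11.4 and 24.3 CPM in WT libraries 1 to 3. The KO values lay inside the WT range, and the log2 fold change was -0.01 ± 0.38 (SE). Its 95% interval ran from -0.79 to 0.77, so changes within it in either direction are not excluded (adjusted p = 0.997 by edgeR). Mgll, monoglyceride lipase, stood at 307, 185 and 286 CPM in KO libraries 1 to 3, against 176, 176 and 170 CPM in WT libraries 1 to 3. The groups did not overlap, but KO library 2 exceeded the highest WT library by little. The mean was 259 ± 65.4 CPM in KO and 174 ± 3.74 CPM in WT (SD, n = 3 each), and the log2 fold change was 0.57 ± 0.16 (SE, adjusted p = 0.0362 by edgeR). The Mgll call was lost in 5 of the 6 fits that left out 1 library. Its adjusted p was then 0.177 without KO library 1 and 0.258 without KO library 3, and 0.134, 0.0889 and 0.143 without WT libraries 1, 2 and 3. It was also lost by limma-voom (adjusted p = 0.0577).

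Car3 had 104, 69 and 69 counts in KO libraries 1 to 3, against 30, 24 and 34 counts in WT libraries 1 to 3. These were 53.4, 35.3 and 38.0 CPM in KO, against 14.3, 10.2 and 16.9 CPM in WT, so that the lowest KO library had more than the highest WT library. The mean was 42.2 ± 9.77 CPM in KO and 13.8 ± 3.39 CPM in WT (SD, n = 3 each), with a log2 fold change of 1.62 ± 0.32 (SE) and a 95% interval of 0.96 to 2.28 (adjusted p = 0.00216 by edgeR). Car3 passed in each of the 14 other settings, with a log2 fold change between 1.41 and 1.78 and an adjusted p of at most 0.0311. Its neighbours on chromosome 3 in the RefSeq table are the carbonic anhydrase genes Car1 and Car2. Car1 had 0 counts in all 6 libraries, and Car2 had 1, 1 and 3 counts in KO and 9, 1 and 0 counts in WT. The noncoding gene Gm41999 that overlaps Car3 also had 0 counts in all 6. Of 15 other carbonic anhydrases, 3 were tested and 0 passed by edgeR, DESeq2 or limma-voom, where edgeR called 3.59% of all tested genes. Of the 3, 0 had an unadjusted p under 0.05, where 15.5% of all tested genes did. With 3 tested genes, these counts cannot show whether the rise was particular to Car3. Car8, which is related in sequence but lacks the enzyme activity, had 101 ± 19.8 CPM in KO and 85.3 ± 5.30 CPM in WT (SD, n = 3 each). Car13 had 17.1 ± 8.22 CPM in KO and 16.2 ± 8.62 CPM in WT (SD, n = 3 each).

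**Figure D3:**
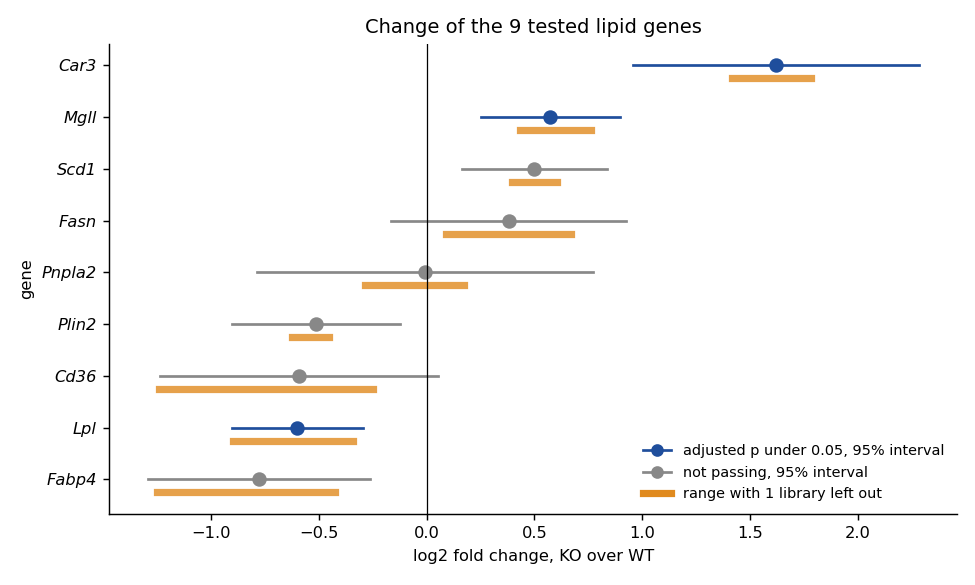
Log2 fold change of KO over WT for the 9 tested lipid genes, with approximate 95% intervals; blue marks an adjusted p under 0.05, and the orange bars give the range when 1 library is left out. The orange bar of Car3 runs between 1.41 and 1.78 and those of Cd36 and Fabp4 reach below -1.2.

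Related genes, most of them of lipid handling, were read from 7 lists of 148 genes outside the set. The lists include the 15 other carbonic anhydrases, which are not lipid genes and of which 3 were tested. The table held 147 of the 148 genes and 90 were tested. Of these 90, 2 were higher, 2 lower and 86 did not pass, where 3.59% of all tested genes were called. The median log2 fold change over these 90 genes was 0.02. In the uptake list, 1 of 14 tested genes was higher and 1 lower, and 6 had an unadjusted p under 0.05 by edgeR. Over all tested genes this share was 15.5%. Short of the adjusted threshold, Lrp1 and Cav1 were lower and Pcsk6 and Furin higher in KO, without overlap of the libraries. Lrp1 was called lower by DESeq2 and with the replicate block. Vldlr, a receptor for triglyceride-rich lipoproteins, rose in KO, at 272, 179 and 210 CPM in KO libraries 1 to 3, against 111, 140 and 153 CPM in WT libraries 1 to 3. All KO libraries lay above all WT libraries, and the log2 fold change was 0.71 ± 0.16 (SE, n = 3 each; adjusted p = 0.00883 by edgeR). The Vldlr call was lost without KO library 1, KO library 3 or WT library 1, at adjusted p of 0.0882, 0.0543 and 0.113. Apoe, a ligand of that receptor, fell in KO, at 162, 84.4 and 121 CPM in KO libraries 1 to 3, against 187, 191 and 187 CPM in WT libraries 1 to 3. The KO libraries were spread out below a narrow WT group, and the log2 fold change was -0.62 ± 0.18 (SE, adjusted p = 0.0428 by edgeR). The Apoe call held without KO library 1 and was lost in the other 5 fits that left out 1 library, with an adjusted p between 0.102 and 0.216. Its log2 fold change without WT library 1, 2 or 3 was -0.64, -0.62 and -0.64, close to that of the main fit. Gpihbp1, the endothelial anchor of Lpl, named for its role after its values were seen, had 0, 0 and 5 counts in KO and 0, 10 and 9 counts in WT and was not tested. Angptl4, an inhibitor of Lpl that was chosen after its values were seen, stood at 48.2, 186 and 121 CPM in KO libraries 1 to 3, against 138, 113 and 155 CPM in WT libraries 1 to 3. Its lowest library was KO library 1, as for Lpl, Cd36 and Fabp4, and its groups overlapped (adjusted p = 0.801).

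The lipolysis list had 1 lower gene of 14 tested, where 1.77% of all tested genes were called lower. It had 1 gene at an unadjusted p under 0.05, where 15.5% of all tested genes were. G0s2, an inhibitor of adipose triglyceride lipase, fell in KO, at 23.1, 37.3 and 18.7 CPM in KO libraries 1 to 3, against 42.8, 78.7 and 45.2 CPM in WT libraries 1 to 3. All KO libraries lay below all WT libraries, and the log2 fold change was -1.07 ± 0.30 (SE, adjusted p = 0.0362 by edgeR). The G0s2 call was lost without KO library 1, KO library 3 or WT library 2, at adjusted p of 0.101, 0.259 and 0.296. A further pair was named for its role after the values were seen. Abhd5, which activates the same lipase, did not pass (log2 fold change -0.08 ± 0.19, SE; adjusted p = 0.903), and Lipe, hormone-sensitive lipase, had between 11 and 21 counts in each library.

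The lists of activation, synthesis and storage had 0 genes passing of 8, 15 and 19 tested by edgeR, with 0, 3 and 4 at an unadjusted p under 0.05, where 15.5% of all tested genes were. DESeq2 and limma-voom called 0 genes of activation and synthesis and each called Rab18 of the storage list. Without the filter on low counts, edgeR also called Acsbg1 of the activation list as lower. Acsbg1 had 0 counts in each KO library, against 8, 8 and 16 counts in WT libraries 1 to 3. Rab18, a small GTPase of lipid droplets, stood at 202 ± 40.5 CPM in KO and 283 ± 16.7 CPM in WT (SD, n = 3 each), with an adjusted p of 0.0576 by edgeR and of 0.046 and 0.0447 by DESeq2 and limma-voom. Plin3, another perilipin, had 92.9 ± 18.1 CPM in KO and 106 ± 12.1 CPM in WT (SD, n = 3 each; adjusted p = 0.696). The log2 fold change of Acly, which makes cytosolic acetyl-CoA, was 0.06 ± 0.15 (SE; adjusted p = 0.917). That of Dbi, which binds acyl-CoA, was 0.22 ± 0.12 (adjusted p = 0.419), and that of Acbd3 was 0.03 ± 0.14 (adjusted p = 0.957).

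Among 18 tested regulators of lipid genes, 1 was higher and 0 were lower, where 1.82% and 1.77% of all tested genes were. By edgeR 4 of the 18 had an unadjusted p under 0.05, where 15.5% of all tested genes did. Cebpb, a transcription factor of early adipogenesis, rose in KO, at 183, 127 and 153 CPM in KO libraries 1 to 3, against 103, 81.7 and 92.8 CPM in WT libraries 1 to 3 (log2 fold change 0.74 ± 0.17, SE; adjusted p = 0.00969). Its call was lost without KO library 1 or 3 or WT library 2 or 3, with an adjusted p between 0.0505 and 0.0805. Pparg, the receptor under which many of the 10 genes are induced and chosen after its values were seen, had 15, 11 and 10 counts in KO libraries 1 to 3, against 26, 42 and 28 counts in WT libraries 1 to 3. All KO libraries lay below all WT libraries. The log2 fold change of Pparg was -1.22 ± 0.51 (SE) and did not pass (adjusted p = 0.224 by edgeR). It was the lowest of the 18 tested regulators. Cebpa overlapped between KO and WT, at -0.25 (adjusted p = 0.841 by edgeR). Cebpd was higher in KO without overlap, at 0.30 (adjusted p = 0.189 by edgeR). Scap was lower without overlap, at -0.80 (adjusted p = 0.0639 by edgeR). Scap was called lower without the filter on low counts and without WT library 1.

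**Figure D4:**
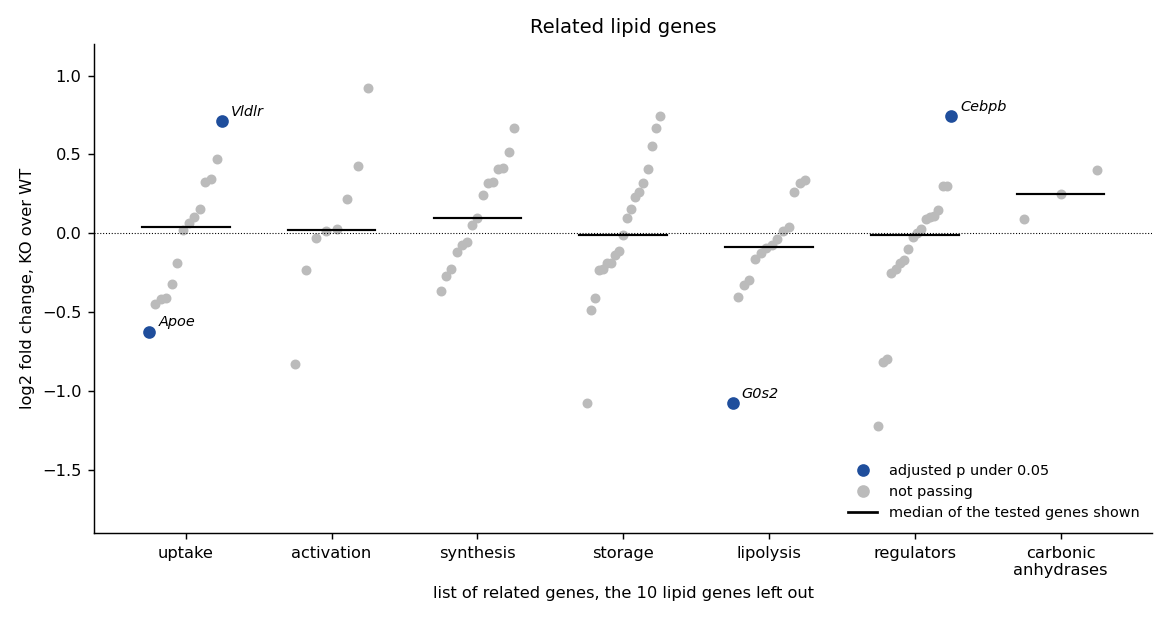
Log2 fold change of KO over WT for the tested genes of 7 related lists, each point 1 gene and each bar the median of a list. The 4 genes that passed are named in blue, Vldlr and Cebpb above 0 and Apoe and G0s2 below it.

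Several of these genes are also expressed by cells outside the gate, Fabp4 and Cd36 by endothelium and macrophages and Car3 by muscle and mature fat cells. In bulk libraries, fewer cells of a type and less RNA per cell cannot be told apart. Of 12 markers of mature fat cells, 8 had 0 counts in all 6 libraries, among them Plin1, Cidec and Lep, and Adipoq had between 0 and 2 counts. The list summed to between 52.3 and 116 CPM in KO and between 76.2 and 88.0 CPM in WT, most of it Plin4. KO library 1, where Car3 was highest, had the lowest sum of this list. Of 20 skeletal muscle markers, Myh7 had 0 counts throughout and 10 were tested, and their sum was 157, 268 and 289 CPM in KO libraries 1 to 3, against 159, 41.5 and 174 CPM in WT libraries 1 to 3. KO library 1, with the most Car3, had a muscle sum inside the WT range. WT library 2, with the least Car3, had the lowest muscle sum of the 6.

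Endothelial markers summed to between 140 and 175 CPM in KO and between 137 and 159 CPM in WT, most of it Tek, while Pecam1 and Cdh5 had at most 6 counts in a library and 3 of 12 markers had 0 counts in all 6. Macrophage markers summed to between 4.60 and 9.35 CPM in KO and between 2.12 and 6.95 CPM in WT, with 6 of 12 at 0, among them Adgre1 and Ptprc. The sum of erythroid markers was 151, 0 and 39.1 CPM in KO libraries 1 to 3, against 1.69 to 7.13 CPM in WT, and Slc4a1 had 0 counts in all 6 libraries. KO library 1 was thus apart in this list as well as in Lpl, Cd36 and Fabp4. The list of pericytes and smooth muscle, most of it Abcc9 and with none of its 9 markers at 0 throughout, summed to 45.2, 91.0 and 101 CPM in KO libraries 1 to 3, against between 109 and 122 CPM in WT. The sum was lower in KO without overlap, and lowest in KO library 1, where Lpl, Cd36 and Fabp4 were also lowest. This separation was that of Abcc9, at 66, 158 and 136 counts in KO libraries 1 to 3, against 214, 233 and 198 counts in WT libraries 1 to 3. Every other marker of the list overlapped between KO and WT, with at most 25 counts in a library. Schwann cell markers summed to between 112 and 144 CPM in KO and between 108 and 121 CPM in WT, with 1 of 6 at 0, and mesothelial markers to between 2.75 and 5.65 CPM in KO and between 1.43 and 4.66 CPM in WT, with 3 of 6 at 0. All 9 markers of preadipocytes and stroma were tested, and their sum was 74256, 61300 and 63262 CPM in KO libraries 1 to 3, against 60353 to 62224 CPM in WT. Col1a1 was the largest part of that sum, and it was highest in KO library 1. By edgeR, 3 of these 9 were higher in KO (Col1a1, Cd34 and Ly6a), 3 were lower (Pdgfra, Pdgfrb and Lum) and 3 did not pass (Dcn, Col3a1 and Itgb1). Over all tested genes 3.59% were called, 1.82% as higher and 1.77% as lower. The part of these cell types in the changes of the lipid genes was not tested. Gapdh, a gene of high level in most cells, was at 0 counts in 4 libraries and at 1 in the other 2, so a count of 0 here is no proof that a gene is silent.

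**Figure D5:**
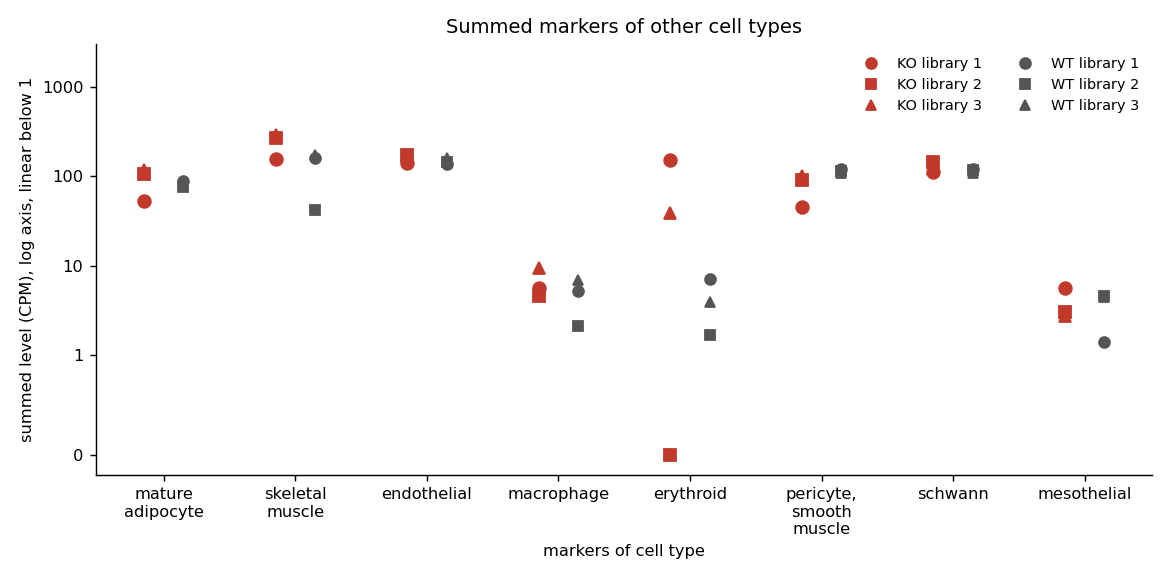
Summed level of marker lists of 8 other cell types in each library, in CPM on a log axis that is linear below 1, with KO symbols left of WT symbols. Muscle markers reach 289 CPM in KO library 3, erythroid markers reach 151 CPM in KO library 1, and macrophage and mesothelial markers stay below 10 CPM.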

How the data were processed

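The 10 genes, the related lists and the tests were chosen with earlier results of these data known. Per the labels' protocols, RNA from sorted cells was selected by poly(A). Per the submitters' processing notes, tools such as HTSeq 0.9.1 and HISAT2 2.2.1 were used, and 3 names of builds are listed (mm10, mm39, GRCm39) with no roles. The authors deposited raw read counts per gene symbol, and no source used here says whether counting used strand. The deposited list of methylation regions was not used, because the build of its coordinates is not stated.

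The main fit used edgeR 4.0.16 (R 4.3.3, limma 3.58.1). The filter on low counts was filterByExpr with a minimum count of 10 and a minimum total of 15, and 9943 genes passed, which hold at least 99.2% of each library's counts. KO was compared with WT by quasi-likelihood after TMM scaling, and p-values were adjusted after Benjamini and Hochberg over all tested genes at 0.05. Standard errors and 95% intervals were derived from the F statistic. A level of 3 counts was worth 1.27 to 1.65 CPM, counting error only. Lists were matched by symbol or, for Cavin1 (Ptrf) and Gpat3 (Agpat9), by a RefSeq synonym. All 10 genes were named, then per list up to 4 genes that passed or else the 2 of highest level. The script was checked on simulated data. Replicates differed by more than counting noise, at a chi-square of 4.05 to 7.13 per degree of freedom, so none were merged. Alternatives were DESeq2 1.42.0, limma-voom, other factors and filters, a replicate block and leaving out each library.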

Additional observations from a re-analysis of the deposited data

How the results depend on the processing

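Over all genes edgeR called 357, and leaving out 1 library gave between 158 and 370, with between 82 and 182 higher and between 76 and 188 lower in KO. Of the 10 lipid genes 3 were called, and between 1 and 5 when 1 library was left out: 5 without KO library 2, and 1, Car3, without KO library 3, WT library 1 or WT library 3. Of the related genes 4 were called, between 0 and 4 when 1 library was left out (0 without KO library 3), and 7 without the filter on low counts. With 1 library left out the log2 fold change ran from -0.90 to -0.34 for Lpl, -1.24 to -0.25 for Cd36, -1.25 to -0.42 for Fabp4, 0.43 to 0.76 for Mgll and 0.088 to 0.67 for Fasn. For the related genes with a call it ran from 0.53 to 0.83 for Vldlr and 0.60 to 0.86 for Cebpb. It ran from -0.88 to -0.42 for Apoe and -1.42 to -0.74 for G0s2, with no change of sign. For the related genes without a call it ran from -0.046 to 0.10 for Acbd3 and -0.0018 to 0.14 for Acly. It ran from -0.35 to 0.59 for Car13 and -0.68 to 0.19 for Angptl4, so the genes without a call named here have no settled sign. It ran from -0.29 to 0.17 for Pnpla2, which has no direction in these data and also turned positive by limma-voom, at 0.090, and with the replicate block, at 0.040. Lpl lost its call under DESeq2 at a log2 fold change of -0.60, and Mgll lost it by limma-voom at 0.54. Fabp4 gained a call by limma-voom at -0.92, without a filter at -0.77 and with the replicate block at -0.88 (adjusted p = 0.00136). The cause was not tested in these cases. RLE, upper quartile or no factors changed no call among the 10 genes and moved the median of all genes by less than 0.1 on the log2 scale. Deviations from the group means gave no sign of pairing by number, with correlations of 0.020, 0.017 and -0.00024 for numbers 1 to 3. Such low values cannot exclude pairing, and the labels state none. The replicate block gave 501 calls over all genes and 4 among the lipid genes. At these depths Acsl1 and Pparg rest on few counts, and the intervals of Pnpla2 and Fasn span 0.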
